A study of Rattus norvegicus with 12 samples.

Results

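The transcriptional response of neonatal rat ventricular myocytes (NRVMs) to phenylephrine (PE) after knockdown of Slc39a2 was measured by comparing 3 siSlc39a2 PE samples with 3 siSlc39a2 samples. These are 6 of the 12 RNA-seq samples of the study. NRVMs are primary heart muscle cells from newborn Sprague-Dawley rats, purified on a Percoll gradient and kept in medium with insulin, transferrin and selenium. Both groups of the comparison carried the same siRNA of a single sequence against Slc39a2. PE was added 12 h after transfection and, per the sample labels, left for 36 h, while the culture methods give a longer time. The other 6 samples, 3 siNeg and 3 siNeg PE, carried a control siRNA and were otherwise treated alike, and they served to compare the 2 PE responses. The labels number the samples of a group but do not say which came from one preparation of cells, so p-values measure the spread between these samples. Of 18483 genes listed, 13967 passed the filter on low counts and were tested.

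Phenylephrine is an agonist of the alpha1-adrenergic receptor, which acts through the G protein Gq on phospholipase C, protein kinase C and calcium. In cultured myocytes it is the standard stimulus of hypertrophy, the growth of the cells without division, with a return of genes of the fetal heart and a retreat from fatty acid use. Slc39a2 encodes a plasma membrane transporter of the ZIP family, which bring zinc into the cytosol.

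Total expected counts were between 24065539 and 28603854 per sample, and 3 counts, the smallest number taken as detected, were worth 0.102 to 0.118 CPM (counts scaled to a common library size). Such floors cover counting error only. Replicates of each group differed by more than counting noise, the chi-square over its degrees of freedom being 4.73 at the lowest pair and 33.3 at the highest, siSlc39a2 PE replicates 1 and 3. Of the 12 cardiomyocyte markers, all were detected, and their summed level was 44170 to 45350 CPM in siSlc39a2 and 68180 to 72590 CPM in siSlc39a2 PE. They include Nppa, Myh7, Myh6 and Myl7, whose own changes with PE are given below. Their sum thus does not stand for the share of myocytes alone. Markers of other cells were present too. The 12 fibroblast markers summed to 5468 to 5789 CPM in siSlc39a2 and 3703 to 5124 CPM in siSlc39a2 PE, the 10 smooth muscle and pericyte markers to 4065 to 4570 and 6537 to 7206 CPM, the 11 macrophage and leukocyte markers tested to 49.1 to 61.5 and 36.4 to 43.6 CPM, and the 10 endothelial markers tested to 115.2 to 117.9 and 119.7 to 138.7 CPM. The smooth muscle and pericyte markers include Des and Abcc9, which the sarcomere and ion channel lists below also hold. Acta2, Cnn1 and Myh11 among them are also in the actin list, so their sum does not stand for other cells alone. The endothelial marker Cldn5 had no count in any of the 6 samples. In such cultures a lower share of cells of one type and less RNA per cell cannot be told apart.

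Slc39a2 itself (NCBI gene 305846) remained at very low levels. It had 21, 11 and 2 counts in the siSlc39a2 samples and 31, 25 and 38 counts in the siSlc39a2 PE samples, against 50, 50 and 59 in siNeg and 95, 198 and 182 in siNeg PE. All 3 samples with knockdown and PE were below the lowest control sample in count. PE raised Slc39a2 by 1.49 ± 0.48 (SE) on the log2 scale after knockdown (edgeR adjusted p = 0.0172) and by 1.47 with siNeg. The difference between the 2 responses was 0.02, with a 95% interval of -0.90 to 0.94. At these counts the rise depended on single samples: it was 1.01 and no longer passed without siSlc39a2 replicate 3, and it also lost the adjusted p without siSlc39a2 replicate 2 (1.44) and without siSlc39a2 PE replicate 3 (1.32).

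PE changed a large part of the transcriptome on the knockdown background. A gene was called where its log2 fold change lay beyond 1 in either direction with an adjusted p under 0.05. By this criterion 886 genes were higher with PE (6.34% of the genes tested) and 583 were lower (4.17%). At the adjusted p alone, 4287 genes were higher (30.7%) and 4091 lower (29.3%). Of the 1469 genes called, 114 rose and 131 fell by more than 2 on the log2 scale. The 3 samples of one group did not overlap with those of the other in 1434 of the genes called, and in 65.1% of all genes tested. The largest rises and falls and the called list genes named below were chosen among those without overlap. Its absence in them is thus no further result. Without siSlc39a2 PE replicate 1 the called numbers were 1154 higher and 676 lower, and without siSlc39a2 PE replicate 3 they were 628 and 574. A gene is given below as uncertain where its expected counts were not whole in every sample, which means that reads were shared with other genes. Of the genes tested, 68% had whole counts in every sample.

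**Figure D1:**
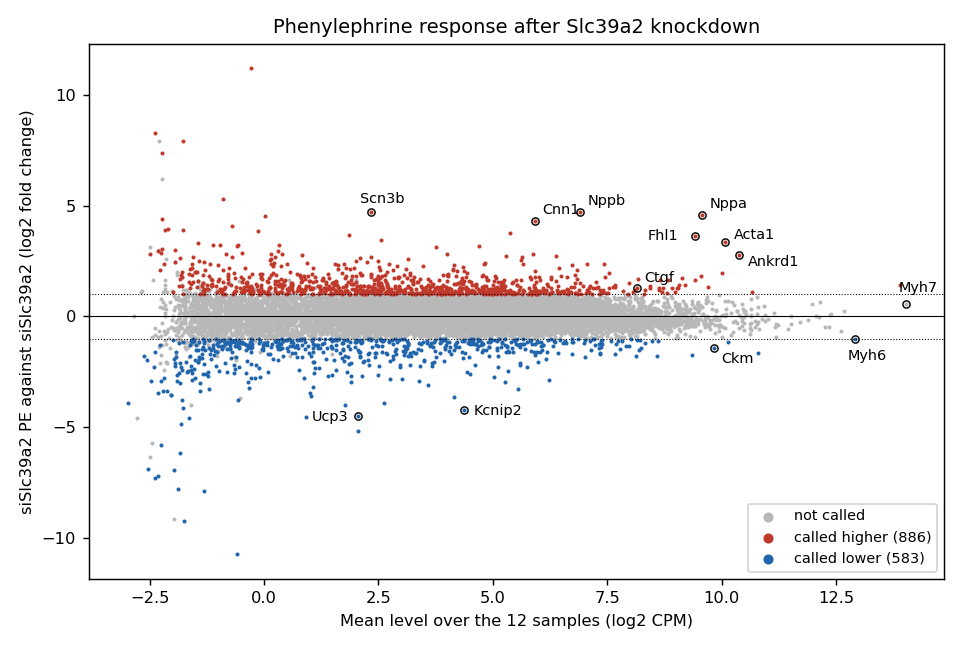
Each point is 1 of the 13967 genes tested, with its mean log2 CPM over the 12 samples on the x axis and the log2 fold change of siSlc39a2 PE against siSlc39a2 on the y axis. Dotted lines mark a log2 fold change of 1 in either direction. Red and blue mark the 886 genes called higher and the 583 called lower, which scatter most at low levels, and among genes with a mean above 1 the natriuretic peptide genes Nppb (4.71) and Nppa (4.56) lie near the top and Ucp3 (-4.48) and Kcnip2 (-4.22) near the bottom.

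Genes of the fetal heart program rose. Of 20 genes tested on the list of fetal and hypertrophy markers, 9 were called higher and 2 lower, with a median log2 fold change of 0.615 against 0.00578 over all genes. With any single sample left out the number called higher was again 9. Nppb, which encodes brain natriuretic peptide, had 57.8, 59.5 and 55.8 CPM in the siSlc39a2 samples and 1623, 1527 and 1378 CPM in the siSlc39a2 PE samples. Nppa, the gene of atrial natriuretic peptide, had 202, 234 and 217 CPM and 5412, 5131 and 4822 CPM. In both genes the lowest PE sample was more than 10 times the highest sample without PE. The log2 fold changes were 4.71 ± 0.16 (SE) for Nppb (edgeR adjusted p = 5.59e-10) and 4.56 ± 0.16 (SE) for Nppa (edgeR adjusted p = 5.59e-10). Ankrd1, a stretch-responsive titin-binding repeat protein, went from 788, 785 and 966 CPM to 5299, 5614 and 6339 CPM, a log2 fold change of 2.76 ± 0.12 (SE). Fhl1, a LIM protein of the sarcomere, went from 223, 241 and 245 CPM to 2896, 2874 and 2878 CPM, and its samples were tightly grouped on either side (3.61 ± 0.12 SE). Acta1, skeletal alpha-actin and uncertain for shared reads, went from 250, 284 and 282 CPM to 2912, 2685 and 2707 CPM (3.35 ± 0.10 SE).

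The myosin heavy chains moved less. Myh7, the slow isoform of the fetal rat ventricle and uncertain for reads shared with close relatives, had 13810, 13250 and 13280 CPM without and 19650, 19660 and 19290 CPM with PE, a log2 fold change of 0.54 ± 0.07 (SE) that passed the adjusted p (3.21e-05, edgeR) but not the fold threshold. Myh6, the fast adult isoform and also uncertain, fell from 7921, 7380 and 6919 CPM to 3655, 3867 and 3496 CPM (-1.01 ± 0.09 SE). It stood at the threshold, with -0.98 and no call without siSlc39a2 PE replicate 3 and -0.96 without siSlc39a2 replicate 1. Myl7, the atrial regulatory light chain, fell from 26.6, 25.6 and 26.8 CPM to 13.1, 10.3 and 9.89 CPM (-1.25 ± 0.13 SE).

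**Figure D2:**
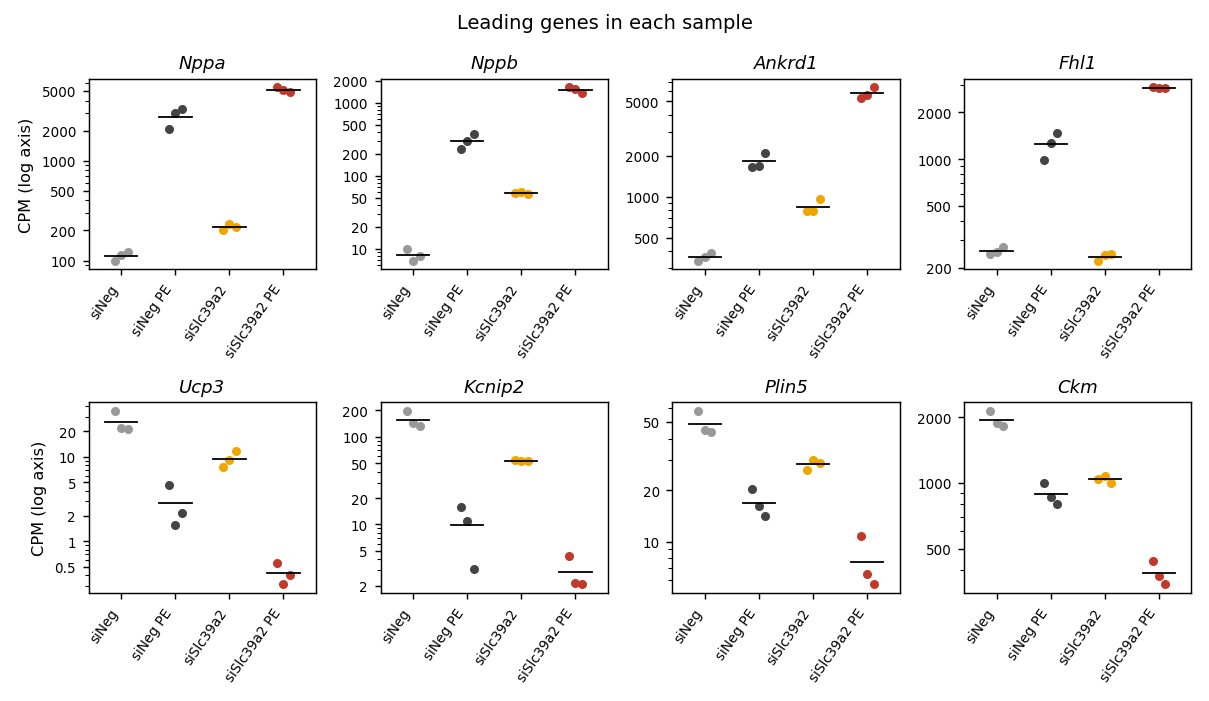
CPM of 8 genes on a log axis, with 1 point for each of the 3 samples in siNeg, siNeg PE, siSlc39a2 and siSlc39a2 PE and a line at the mean of each group. In the upper row (Nppa, Nppb, Ankrd1 and Fhl1) every siSlc39a2 PE sample lies above every other sample, and in the lower row (Ucp3, Kcnip2, Plin5 and Ckm) every siSlc39a2 PE sample lies below every siSlc39a2 sample.

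The 250 bases before the start of transcription of 4 of these genes are shown because theirs were the 4 largest rises of the fetal and hypertrophy marker list. They come from the RefSeq promoter windows of build GRCr8, which is not the build of the counts, and run 5′ to 3′ on the strand of the gene. Capitals mark letters that match the CArG box, the site named for serum response factor, or the M-CAT core GGAATG on either strand, the site named for TEAD factors. Nppb (chr5:163699758-163700007, plus strand) and Nppa (chr5:163711934-163712183, plus strand) are neighbours on chromosome 5, and Acta1 (chr19:68784195-68784444) is on the minus strand. Fhl1 (chrX:139638246-139638495, plus strand) has 2 starts in the table and is shown for the first whose window held a match. That its window holds a match thus followed from the choice.
Nppa: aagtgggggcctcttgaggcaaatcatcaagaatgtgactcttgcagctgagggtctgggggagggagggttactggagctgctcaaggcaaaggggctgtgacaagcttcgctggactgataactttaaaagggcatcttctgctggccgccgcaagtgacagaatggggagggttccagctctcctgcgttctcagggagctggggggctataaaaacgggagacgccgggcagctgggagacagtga
Nppb: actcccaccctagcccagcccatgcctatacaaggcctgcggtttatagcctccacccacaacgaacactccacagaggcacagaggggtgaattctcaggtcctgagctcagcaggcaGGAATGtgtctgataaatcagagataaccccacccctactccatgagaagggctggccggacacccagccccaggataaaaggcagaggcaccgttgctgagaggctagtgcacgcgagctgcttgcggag
Acta1: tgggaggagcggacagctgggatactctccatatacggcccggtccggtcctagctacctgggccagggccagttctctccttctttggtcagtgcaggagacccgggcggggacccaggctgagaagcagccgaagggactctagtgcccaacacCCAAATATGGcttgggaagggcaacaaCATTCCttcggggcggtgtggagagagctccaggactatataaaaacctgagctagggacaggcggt
Fhl1: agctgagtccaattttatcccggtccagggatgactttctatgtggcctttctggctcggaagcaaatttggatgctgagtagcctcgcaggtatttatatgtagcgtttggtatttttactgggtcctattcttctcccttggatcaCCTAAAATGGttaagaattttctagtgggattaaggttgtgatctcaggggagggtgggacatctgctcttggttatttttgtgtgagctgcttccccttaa
The Acta1 window held a CArG box 94 bases before the start and an M-CAT core at 67, Nppb an M-CAT core at 131 and Fhl1 a CArG box at 102, while neither set of letters was in the Nppa window. Among the 10832 genes tested with a window, 1.32% held a CArG box and 10.8% the M-CAT core. The shares were 1.66% and 10.1% of the 661 genes called higher and 1.65% and 11.6% of the 423 called lower, which lie close to the shares over all genes. A match of letters is not a bound site.

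Genes of the sarcomere and Z-disc rose more often than they fell. Of 39 tested, 8 were called higher and 2 lower, and their median log2 fold change was 0.425. Mybpc2, the fast skeletal myosin-binding protein C, went from 6.22, 7.45 and 6.63 CPM to 60.8, 61 and 55.7 CPM (3.13 ± 0.18 SE). Pdlim5, a scaffold of protein kinase C at the Z-disc, went from 269.5, 263 and 319.5 CPM to 763, 834 and 1050 CPM (1.64 ± 0.12 SE), and Pdlim3 from 114, 125 and 114 CPM to 289, 279 and 242 CPM (1.20 ± 0.08 SE). The M-band genes went the other way. Myom2, or M-protein, fell from 113, 119.6 and 118 CPM to 36.5, 41.7 and 44 CPM (-1.52 ± 0.16 SE). Myom3, uncertain for shared reads, fell from 28.2, 29.1 and 27.8 CPM to 3.21, 4.42 and 3.49 CPM (-2.93 ± 0.12 SE). In neither did the groups overlap, as the choice of genes required.

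In the actin cytoskeleton and smooth muscle contractile genes, 5 of 30 were called higher and none lower, with 17 higher and 8 lower at the adjusted p alone. Cnn1, the smooth muscle calponin, had 12, 11.7 and 12.3 CPM in siSlc39a2 and 236, 229 and 238 CPM in siSlc39a2 PE, the fourth-largest rise among the genes eligible to be named (4.29 ± 0.09 SE, edgeR adjusted p = 1.36e-11). Actn1, the non-muscle actinin that crosslinks stress fibres, rose from 104, 106 and 114 CPM to 366, 367 and 393 CPM (1.79 ± 0.15 SE), and Actn4, its paralogue and uncertain, from 313, 307 and 321 CPM to 739.7, 731 and 823 CPM (1.28 ± 0.06 SE). The number called higher was 9 without siSlc39a2 PE replicate 1 and 9 without siSlc39a2 replicate 3. Of the 10 smooth muscle and pericyte markers, 2 were called higher (Cnn1 is one of them) and their summed level did not overlap between the groups, as given above. Acta2, Cnn1 and Myh11 are in both lists, and the part of other cells in the rise was not tested.

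Among growth factors, cytokines and hormones, 6 of 55 were called higher and 2 lower, and without siSlc39a2 PE replicate 1 the number higher was 10. Tgfb2, a ligand of the TGF-beta family, rose from 29, 30.0 and 33.1 CPM to 134, 149 and 184 CPM (2.34 ± 0.17 SE, edgeR adjusted p = 3.38e-07). Tgfb3 rose from 95.1, 96.2 and 101 CPM to 203, 197 and 203 CPM (1.04 ± 0.07 SE). Fstl3, a secreted inhibitor of activins, rose from 4.18, 4.4 and 4.13 CPM to 15.7, 14.6 and 13.2 CPM (1.77 ± 0.12 SE). These 3 secreted factors were each higher in every PE sample than in any sample without PE, as the choice of genes required. Igfbp5, which binds insulin-like growth factors, fell from 5.08, 4.17 and 4.76 CPM to 0.895, 1.31 and 1.82 CPM (-1.79 ± 0.21 SE). Inha, the inhibin alpha subunit and outside this list, was among the 15 largest rises, from 12.7, 12.9 and 11.3 CPM to 88.3, 78.7 and 78.8 CPM (2.73 ± 0.08 SE).

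In the extracellular matrix list, 3 of 65 were called higher and 3 lower, with a median of 0.00281. Over all genes tested 6.34% were called higher and 4.17% lower, so the list as a whole did not stand out. Ctgf, a matricellular protein and a common target of TGF-beta and YAP signals, rose from 203, 209.7 and 233 CPM to 535, 497 and 548 CPM (1.29 ± 0.13 SE, edgeR adjusted p = 4.14e-06). Lamc1, a laminin chain of basement membranes, rose from 1125, 1048 and 1036 CPM to 2253, 2304 and 2311 CPM (1.10 ± 0.08 SE). Eln, elastin, fell from 299, 281 and 258 CPM to 92.1, 88.1 and 113 CPM (-1.51 ± 0.14 SE). Of the 12 fibroblast markers none was called, 3 were higher and 4 lower at the adjusted p, and their summed level was lower with PE in every sample. Their part in these values was not tested.

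Ion channel genes were among both the largest rises and the largest falls. Of 31 tested, 3 were called higher and 6 lower, with a median of -0.374. Kcnip2, the subunit that sets the transient outward potassium current and uncertain for shared reads, fell from 54.9, 52.3 and 52.9 CPM to 4.4, 2.14 and 2.07 CPM (-4.22 ± 0.44 SE, edgeR adjusted p = 8.06e-06). Kcnd2, a pore subunit of the same current and uncertain, fell from 3.25, 2.88 and 3.16 CPM to 0.559, 0.862 and 0.945 CPM (-1.96 ± 0.19 SE). Scn4b, a sodium channel beta subunit, fell from 50.8, 48.5 and 48.1 CPM to 10.4, 10.6 and 10.8 CPM (-2.21 ± 0.08 SE), and Gja5, connexin 40 of the conduction system, from 163, 153 and 132 CPM to 54, 50.7 and 43.1 CPM (-1.60 ± 0.14 SE). Scn3b, another sodium channel beta subunit, went the opposite way, from 1.38, 2.37 and 1.72 CPM to 41.4, 51.9 and 48.9 CPM (4.69 ± 0.23 SE). Every PE sample of Scn3b was more than 10 times every sample without PE.

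Among 25 calcium handling genes, 5 were called higher and 4 lower. Casq1, the skeletal calsequestrin that buffers calcium in the sarcoplasmic reticulum and uncertain for shared reads, rose from 31.5, 32.4 and 34.7 CPM to 222, 212 and 209 CPM (2.71 ± 0.08 SE). Slc8a1, the sodium-calcium exchanger of the plasma membrane, rose from 379, 364 and 426 CPM to 804, 950.5 and 1123 CPM (1.30 ± 0.11 SE). S100a1, a calcium sensor of the myocyte, fell from 73.5, 79.8 and 66.2 CPM to 39.1, 33.4 and 30.2 CPM (-1.10 ± 0.17 SE). The number called higher was 3 without siSlc39a2 PE replicate 3.

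The receptors that PE binds parted. In the list of alpha1-adrenergic receptors and Gq signalling, 4 of 34 were called higher and 3 lower. Adra1b had 157, 152 and 135 CPM without and 50.5, 45.5 and 40.9 CPM with PE (-1.70 ± 0.13 SE), and Adra1d 66.7, 65 and 59.7 CPM and 24.2, 20.6 and 17.3 CPM (-1.62 ± 0.11 SE). Adra1a, the other alpha1 subtype, chosen after its values were seen, had 28.9, 29.4 and 26.4 CPM and 47.1, 56.7 and 60.7 CPM (0.96 ± 0.12 SE), higher at the adjusted p (3.13e-05, edgeR) but under the fold threshold. In none of the 3 did the groups overlap, which the choice of genes required of Adra1b and Adra1d. Rgs2, which shuts off Gq and is uncertain for shared reads, rose from 21.2, 18.4 and 22.2 CPM to 49.3, 56.2 and 58.8 CPM (1.41 ± 0.11 SE), and Plce1, a phospholipase C, from 17.9, 16.8 and 16.5 CPM to 34, 43.6 and 42.8 CPM (1.23 ± 0.15 SE). Of 27 genes of calcineurin signalling and cardiac transcription, 1 was called higher and 2 lower. Rcan1, the feedback inhibitor of calcineurin, rose from 169.8, 176 and 161 CPM to 368, 354 and 323 CPM (1.04 ± 0.06 SE) and was at 0.979 without siSlc39a2 PE replicate 1 and without siSlc39a2 replicate 3. Hopx, a repressor of cardiac growth genes, fell from 27.7, 29 and 26.2 CPM to 13.3, 13.6 and 12.4 CPM (-1.08 ± 0.08 SE). Of 26 immediate early genes 2 were called higher, led by the orphan nuclear receptor Nr4a3 (2, 1.93 and 1.95 CPM without and 7.27, 6.83 and 8.95 CPM with PE, 1.97 ± 0.15 SE), and of 16 dual-specificity phosphatases and ERK inhibitors 1 was, Dusp4 (1.14 ± 0.16 SE). Over all genes tested 6.34% were called higher and 4.17% lower, and the numbers called in these last 3 lists lay near those shares.

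Genes of fatty acid use fell. Of 34 fatty acid oxidation and uncoupling genes, 12 were called lower and none higher, and at the adjusted p alone 26 were lower and 1 higher, with a median log2 fold change of -0.676. The number called lower was 11 to 14 when any single sample was left out. Ucp3, the mitochondrial uncoupling protein of muscle, fell from 7.67, 9.11 and 11.7 CPM to 0.559, 0.31 and 0.4 CPM (-4.48 ± 0.43 SE, edgeR adjusted p = 3.76e-06). The lipid droplet protein Plin5 fell from 26.1, 29.8 and 28.9 CPM to 10.7, 6.49 and 5.64 CPM (-1.89 ± 0.21 SE), and Ech1, an enzyme of beta-oxidation that is uncertain for shared reads, from 804, 854 and 842 CPM to 295, 229 and 215 CPM (-1.76 ± 0.18 SE). In all 3 genes the highest PE sample was below the lowest sample without PE, as the choice of genes required.

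Regulators of these genes and other energy pathways also had more members lower than higher. Of 19 metabolic nuclear receptors and coactivators, 4 were called lower and 1 higher, and none higher without siSlc39a2 PE replicate 3 or siSlc39a2 replicate 2 or 3. Rxra, the common partner of the PPAR and thyroid hormone receptors, fell from 236, 222 and 196 CPM to 94.1, 94.3 and 84.9 CPM (-1.26 ± 0.08 SE), and its relative Rxrg, uncertain for shared reads, from 95.3, 94.4 and 93.1 CPM to 24.7, 21.4 and 21.6 CPM (-2.06 ± 0.13 SE). Of 11 creatine and adenylate kinase genes, 2 were called lower and 1 higher. Ckm, the muscle creatine kinase, fell from 1041, 1078 and 996 CPM to 437, 375 and 343 CPM (-1.43 ± 0.10 SE). The 2 enzymes of creatine synthesis parted, as Gatm rose from 7.78, 6.94 and 9.01 CPM to 31.8, 34 and 34.4 CPM (2.08 ± 0.13 SE) and Gamt, uncertain, fell from 37.4, 36.8 and 34 CPM to 8.32, 8.07 and 6.91 CPM (-2.21 ± 0.12 SE). In oxidative phosphorylation 1 of 52 subunits was called in each direction, but 42 were lower and 4 higher at the adjusted p alone, with a median of -0.381. None was called higher without siSlc39a2 replicate 1 or 2, or by limma. The one called lower was Cox8b, the heart isoform of a cytochrome oxidase subunit, which fell from 180.3, 210.1 and 171 CPM to 57.6, 52.4 and 47.6 CPM (-1.83 ± 0.14 SE).

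Glycolysis genes went both ways, with more lower than higher. Of 27 genes of glucose uptake and glycolysis, 1 was called higher and 3 lower, with a median of -0.157. At the adjusted p alone 6 were higher and 12 lower, where the shares over all genes tested were 30.7% and 29.3%. The lactate exporter Slc16a3, uncertain, rose from 43.5, 44.5 and 43.6 CPM to 160.2, 153 and 142 CPM (1.79 ± 0.08 SE). The muscle isoforms Pgam2 and Pfkm fell, Pgam2 from 71, 74.7 and 70.8 CPM to 26.6, 22.1 and 22.8 CPM (-1.60 ± 0.12 SE) and Pfkm from 443, 449.7 and 409 CPM to 215, 207 and 188 CPM (-1.09 ± 0.08 SE). Aldoc, an aldolase, fell from 229, 226 and 212 CPM to 92.6, 80.0 and 78.9 CPM (-1.41 ± 0.11 SE).

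Cholesterol genes rose in both size and number. Of 27 genes of cholesterol synthesis and uptake, 14 were called higher and none lower, 24 were higher at the adjusted p alone, and the median log2 fold change was 1.01. Idi1, which isomerises isoprenoid units, rose from 22.1, 21.6 and 32.4 CPM to 112, 128 and 197 CPM (2.52 ± 0.20 SE, edgeR adjusted p = 6.33e-07). Hmgcs1, the cytosolic synthase at the head of the pathway, rose from 103, 113 and 143 CPM to 430.1, 446 and 529 CPM (1.97 ± 0.12 SE). In both genes siSlc39a2 replicate 3 and siSlc39a2 PE replicate 3 were the highest of their groups. Scd, the stearoyl-CoA desaturase and uncertain for shared reads, was the fifth-largest rise of all genes eligible to be named, from 11.4, 10.8 and 11.6 CPM to 158, 151 and 146 CPM (3.75 ± 0.10 SE).

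Of 51 cell cycle and mitosis genes, 13 were called higher and 1 lower, with a median of 0.635. Prc1, a microtubule bundler of the dividing cell, rose from 10.5, 9.82 and 13.8 CPM to 34.1, 41.8 and 54.8 CPM (1.94 ± 0.24 SE). Top2a, the topoisomerase of replicating cells, rose from 9.75, 10.9 and 14.1 CPM to 23.8, 31.2 and 48.4 CPM (1.57 ± 0.29 SE). In both genes siSlc39a2 PE replicate 3 was the highest of its group and well above replicate 1. That the groups did not overlap was required by the choice of genes. Cdkn1c, an inhibitor of cyclin-dependent kinases, fell from 51.7, 48.2 and 51.7 CPM to 22.9, 19.3 and 18.3 CPM (-1.32 ± 0.21 SE).

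Protein synthesis and folding genes changed by less. Of 47 ribosome biogenesis genes, 3 were called higher and none lower, with 25 higher and 4 lower at the adjusted p alone. Over all genes tested 6.34% were called higher and 30.7% were higher at the adjusted p alone. Of 34 chaperones, 4 were called higher and 2 lower. The counts called higher rested on siSlc39a2 PE replicate 3, without which none of either list was called higher. The 2 chaperones called lower became 1 without any one siSlc39a2 PE sample or without siSlc39a2 replicate 2 or 3. In ribosome biogenesis the count was also 6 without siSlc39a2 PE replicate 1 or siSlc39a2 replicate 3, and 1 without siSlc39a2 replicate 1 or 2. The cytosolic chaperone Hsp90aa1, uncertain, had 149, 147 and 196 CPM without and 263, 339 and 516 CPM with PE (1.19 ± 0.19 SE, and 0.878 without that sample). The endoplasmic reticulum chaperone Hsp90b1 had 252, 251 and 326 CPM and 476, 573 and 817 CPM (1.17 ± 0.18 SE, and 0.925 without it). Of 38 genes of the ATF4 and amino acid response none was called, with 13 higher and 15 lower at the adjusted p alone. The one with the smallest adjusted p, Mthfd1l of mitochondrial folate metabolism, had a log2 fold change of 0.91 ± 0.09 (SE), and Chac1, which degrades glutathione, -0.98 ± 0.10 (SE). Without siSlc39a2 PE replicate 1, or without siSlc39a2 replicate 3, 3 of these 38 were called lower.

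Of 23 atrophy, FOXO and autophagy genes, 3 were called lower and none higher, and 15 were lower at the adjusted p alone. Pink1, the kinase that marks damaged mitochondria, fell from 590.3, 588 and 531 CPM to 177, 159.5 and 151 CPM (-1.81 ± 0.12 SE). Klhl38, a muscle protein of the ubiquitin ligase adaptors, fell from 21.6, 19.7 and 20.2 CPM to 9.32, 10.5 and 7.85 CPM (-1.15 ± 0.10 SE). Without siSlc39a2 PE replicate 1, 5 of the list were called lower. None of 26 antioxidant and NRF2 target genes was called. Txnip, an inhibitor of thioredoxin, had 1535, 1511 and 1457 CPM without and 858, 764 and 722 CPM with PE (-0.94 ± 0.11 SE), and Gpx3, a secreted glutathione peroxidase, 113, 133 and 110.4 CPM and 209, 198 and 177 CPM (0.71 ± 0.08 SE).

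Interferon-stimulated genes fell. Of 73 tested, 7 were called lower and none higher, and at the adjusted p alone 42 were lower and 7 higher, with a median of -0.365. This fall took place from a level that the control cells did not have. Irf7, a master regulator of the interferon response, had 30.9, 34.3 and 31.1 CPM in siNeg, 4716, 4832 and 3771 CPM in siSlc39a2 and 2854, 2818 and 2102 CPM in siSlc39a2 PE. Its PE effect after knockdown was -0.78 ± 0.12 (SE) (edgeR adjusted p = 0.000153), below the fold threshold. The chemokine Ccl5 fell from 47.2, 47.1 and 33.9 CPM to 10.6, 11.9 and 9.42 CPM (-2.0 ± 0.16 SE), with 0.671, 0.379 and 0.749 CPM in siNeg. Oasl, an antiviral synthetase-like protein, fell from 568, 524 and 464 CPM to 212, 199 and 225 CPM (-1.29 ± 0.14 SE), with 5.21, 8.53 and 9.77 CPM in siNeg, and the guanylate-binding protein Gbp1 from 481, 450.2 and 529.9 CPM to 166, 210 and 233 CPM (-1.26 ± 0.13 SE), with 3.12, 3.71 and 2.21 CPM in siNeg. In these genes the siSlc39a2 PE samples were below siSlc39a2 but above every siNeg sample. Ifnb1, the gene of interferon beta, was chosen after its values were seen. It had 246, 242 and 189 counts in siSlc39a2 and 46, 34 and 39 counts in siSlc39a2 PE (-2.48 ± 0.20 SE, edgeR adjusted p = 1.15e-05), and no count in any of the 6 siNeg and siNeg PE samples.

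Of 39 NFkB feedback and inflammatory genes, 3 were called higher and 2 lower, and 23 were lower at the adjusted p alone. The calls lay near the shares over all genes tested, 6.34% higher and 4.17% lower, while 29.3% of all genes were lower at the adjusted p alone. Socs1, the inhibitor of cytokine receptors that interferon induces, fell from 24.8, 21.6 and 23.6 CPM to 8.95, 9.04 and 9.85 CPM (-1.33 ± 0.13 SE). Ptgs2, cyclooxygenase 2, rose from 2.46, 2.3 and 2.42 CPM to 4.44, 5.83 and 7.45 CPM (1.30 ± 0.27 SE). The number called lower was between 1, without siSlc39a2 replicate 1, and 5, without siSlc39a2 replicate 3, and it was 4 without siSlc39a2 PE replicate 1. Cd74, the invariant chain of MHC class II and uncertain, was among the 15 largest falls, from 27.1, 21.9 and 17 CPM to 2.61, 2.83 and 2.22 CPM (-3.11 ± 0.22 SE). Of the 11 macrophage and leukocyte markers tested, 1 was called lower and 5 were lower at the adjusted p, and their summed level was lower with PE in every sample. Their part in these falls was not tested.

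Among 23 zinc transporters and metallothioneins, 4 were called higher and 1 lower. Slc39a10, a plasma membrane importer and uncertain, rose from 18.4, 16.4 and 18.6 CPM to 36.5, 46 and 55.7 CPM (1.38 ± 0.17 SE). Mt1, the zinc-binding metallothionein, fell from 10.8, 11.2 and 9.47 CPM to 5.52, 4.45 and 4.36 CPM (-1.13 ± 0.21 SE). Slc30a4, an exporter into vesicles and uncertain, was at the threshold (1.01 ± 0.17 SE) and was no longer called in 9 of 13 alternatives. These were RLE size factors, no filter, the replicate block, DESeq2, both limma fits and the fits without siSlc39a2 PE replicate 3 (0.785), siSlc39a2 replicate 1 (0.964) or siSlc39a2 replicate 2 (0.922). The number called higher was 2 without siSlc39a2 PE replicate 3 or siSlc39a2 replicate 2.

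**Figure D3:**
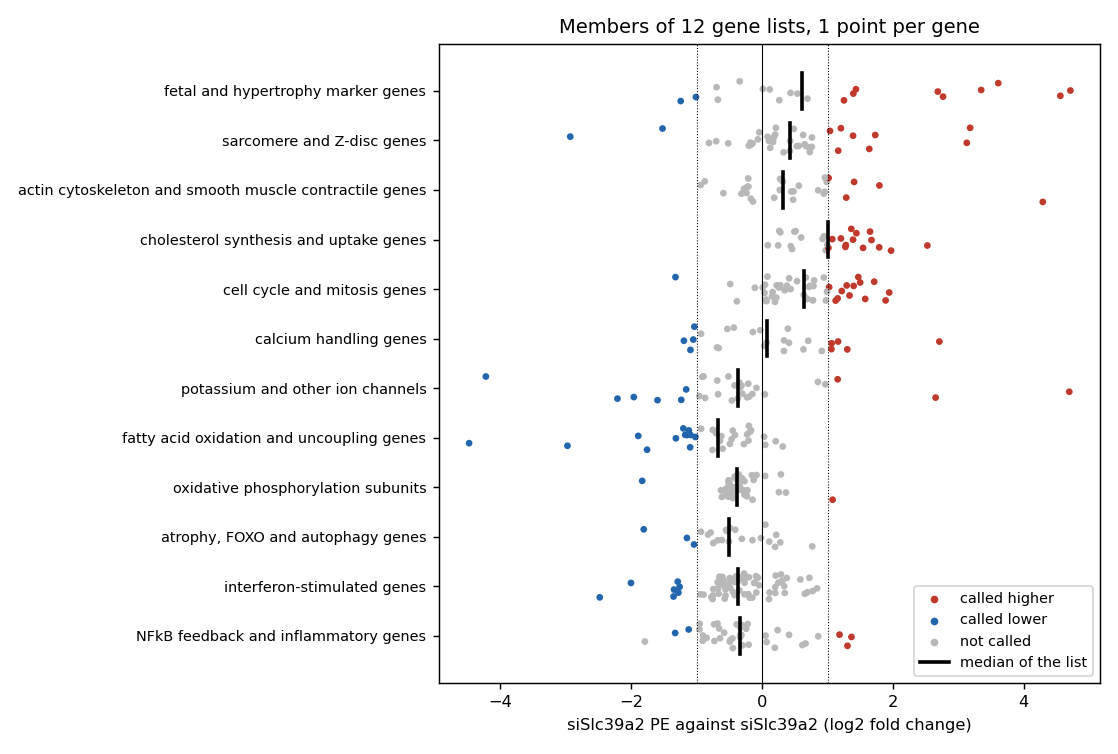
Log2 fold change of siSlc39a2 PE against siSlc39a2 for every tested member of 12 of the gene lists, with 1 point per gene, red and blue for genes called higher and lower, and a black bar at the median of the list. The cholesterol genes have no point left of 0, the fatty acid genes have 12 blue points and no red one, and the oxidative phosphorylation subunits lie close together around -0.381.

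Other genes among the 15 largest rises and falls belong to none of these groups. Ildr2, a membrane protein linked to lipid handling, rose from 1.69, 1.52 and 1.13 CPM to 15.7, 18.9 and 20.7 CPM (3.66 ± 0.25 SE), and Ptgis, prostacyclin synthase, from 19.3, 18.9 and 20.7 CPM to 150, 138 and 124 CPM (2.81 ± 0.12 SE). Wfdc1, a secreted protein with a protease inhibitor domain, rose from 8.92, 8.16 and 7.21 CPM to 81.8, 72.4 and 68.3 CPM (3.19 ± 0.10 SE). LOC292543 and Phf24 rose by 3.42 and 2.81 on the log2 scale. Where the mean level exceeded 1 on the log2 CPM scale, the largest fall was that of Faap100, a subunit of the Fanconi anaemia complex. It fell from 6.91, 8.33 and 5.77 CPM to 0.298, 0.172 and 0.109 CPM (-5.16 ± 0.30 SE, edgeR adjusted p = 6.37e-08), and it is uncertain for shared reads. In the siSlc39a2 PE samples 3 counts were worth 0.112, 0.103 and 0.109 CPM, so the level of Faap100 with PE was near the floor. Its log2 fold change ran from -5.61 to -1.279 over the alternatives. Ky, a muscle protein of the Z-disc region, fell from 31, 31.8 and 29.6 CPM to 2.35, 2.48 and 2.65 CPM (-3.62 ± 0.12 SE), and Dhrs7c, a retinol dehydrogenase of the sarcoplasmic reticulum, from 135, 144 and 135 CPM to 20.2, 18.4 and 18.6 CPM (-2.85 ± 0.17 SE). The gene model LOC100911951, uncertain, fell from 11.5, 15.5 and 10.8 CPM to 0, 1.17 and 1.27 CPM (-3.93 ± 0.46 SE). Asb14 (uncertain), Gabrb2, Gcgr (the glucagon receptor) and Gnb3 had log2 fold changes of -3.99, -3.60, -3.21 and -2.95. In 44 genes called, one group had at most 3 counts in every sample. Of these, Sprr1a, a small proline-rich protein chosen here after its values were seen, had 106, 55 and 56 counts in siSlc39a2 and 0, 0 and 1 in siSlc39a2 PE, at least 23.8-fold lower against a floor of 3 counts per library.

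The response was then set beside that of control cells, which shared no sample with it. With siNeg, PE called 531 genes higher (3.8% of those tested) and 391 lower (2.8%). Of the genes called higher after knockdown, 350 were also called with siNeg, which is 39.5% of the former and 65.9% of the latter. Of the genes called lower, 228 were shared, or 39.1% and 58.3%. No gene was called in opposite directions. Across the 13967 genes, which are not independent replicates, the 2 log2 fold changes had a Pearson correlation of 0.702 and a Spearman correlation of 0.81. The 531 genes called higher with siNeg had a median log2 fold change of 1.36 there and 1.27 after knockdown, and the 391 called lower had -1.32 and -1.25. Chosen the other way round, the 886 genes called higher after knockdown had a median of 1.28 there and 0.89 with siNeg, and the 583 called lower had -1.4 and -0.899. In each case the medians were farther from 0 in the response on which the genes were chosen. Nppa had close estimates in both (4.63 with siNeg, a difference of -0.07 with a 95% interval of -0.49 to 0.34), although its level with PE was 2064, 2973 and 3257 CPM in siNeg PE and thus lower in every sample than in siSlc39a2 PE. Scd (3.73 with siNeg, difference 0.02, -0.26 to 0.30) and Inha (2.67, difference 0.07, -0.16 to 0.30) were also close.

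The difference between the 2 responses, tested as an interaction, passed an adjusted p of 0.05 in 504 genes, 241 more positive after knockdown (1.73% of those tested) and 263 more negative (1.88%). At an absolute difference above 1 as well, 63 were more positive (0.451%) and 75 more negative (0.537%). Of the 504 genes, 264 moved in the same direction and farther after knockdown, 63 in the same direction and less far, and 177 had effects of opposite sign, 52 of these with both PE effects past the adjusted p. The count was sensitive to single samples: without siSlc39a2 replicate 1, 127 were more positive and 128 more negative, and without siNeg PE replicate 2, siNeg replicate 2, siSlc39a2 replicate 2, siSlc39a2 PE replicate 2 and siNeg PE replicate 1 there were 128, 134, 135, 145 and 150 more positive and 139, 135, 140, 136 and 152 more negative. Of the 504 genes, 113 more positive and 114 more negative were called again whichever sample was left out.

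**Figure D4:**
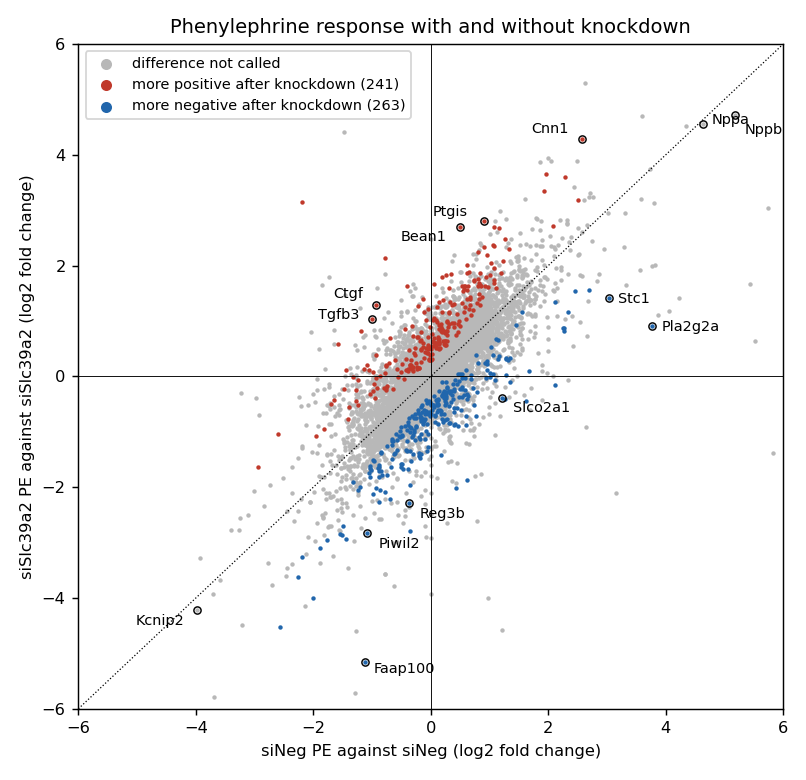
Log2 fold change of PE with siNeg (x axis) against that after Slc39a2 knockdown (y axis), with 1 point per gene, the dotted line where both are equal, and colours for the 241 and 263 genes whose response differed at an adjusted p of 0.05. Both axes run to 6 in either direction, which leaves out 26 genes. Nppa lies near the dotted line, Ctgf and Tgfb3 lie in the upper left where the 2 responses had opposite signs, and Stc1 and Pla2g2a lie to the right of the line.

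Some genes of secreted factors and the matrix moved in opposite directions in the 2 backgrounds. Ctgf fell with PE in control cells, from 301, 334 and 353 to 146, 156 and 218 CPM, and rose after knockdown, from 203, 209.7 and 233 to 535, 497 and 548 CPM. Its PE effect was -0.93 with siNeg and 1.29 after knockdown, a difference of 2.22 ± 0.18 (SE) (edgeR adjusted p = 3.4e-05). Tgfb3 went from 162, 174 and 189.6 to 82.1, 86.2 and 94.7 CPM with siNeg and from 95.1, 96.2 and 101 to 203, 197 and 203 CPM after knockdown, a difference of 2.04 ± 0.10 (SE) (edgeR adjusted p = 5.2e-07). In both genes PE thus moved all samples down in one background and up in the other. Tnfrsf11b, the decoy receptor osteoprotegerin, had effects of -1.18 and 0.81 (difference 1.99 ± 0.27 SE). Tgfb2 rose in both, with effects of 0.91 and 2.34 (difference 1.43 ± 0.24 SE). In the growth factor list the response was more positive after knockdown in 6 of 55 genes and more negative in 1, and in the matrix list in 9 and 1 of 65, with 3 to 6 and 8 to 14 more positive when single samples were left out. The more negative counts were then 0 to 3 and 0 to 2, with 3 growth factors without siSlc39a2 PE replicate 3 and 2 matrix genes without siNeg replicate 1, and 0 in most of the other fits. The 14 came without siNeg replicate 1. The 3 came without siNeg replicate 2, siNeg PE replicate 1 or 2, siSlc39a2 PE replicate 2 or 3, or siSlc39a2 replicate 1 or 2. The 12 fibroblast markers summed to 14110 to 18710 CPM in siNeg and 9364 to 12040 CPM in siNeg PE. After knockdown they summed to 5468 to 5789 CPM without and 3703 to 5124 CPM with PE. The matrix list summed to 43130 to 53150 CPM in siNeg and 37150 to 43970 CPM in siNeg PE. After knockdown it had 21190 to 21780 CPM without and 21940 to 24790 CPM with PE. The part of other cells in these differences was not tested.

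The actin list differed in 1 direction. Of its 30 genes, 16 had a more positive PE effect after knockdown and none a more negative one, and the median difference was 0.624 against 0.0262 over all genes. Actn1 had 126, 152 and 151 CPM in siNeg and 118, 167 and 206 CPM in siNeg PE, groups that overlapped, while after knockdown all PE samples were above 3 times the siSlc39a2 samples. The difference in its effect was 1.60 ± 0.21 (SE) (edgeR adjusted p = 0.00115). Cnn1 rose in both backgrounds, from 27, 27.6 and 29.3 to 147, 166 and 187 CPM with siNeg, and the difference was 1.71 ± 0.12 (SE). Of the fetal markers 6 of 20 differed upward and 1 downward, among them Fhl1 (a difference of 1.33 ± 0.16 SE) and Acta1 (1.42 ± 0.13 SE). With single samples left out, 4 to 6 fetal markers differed upward and 0 to 2 downward. The 16 actin genes became 9 without siNeg replicate 2, siNeg replicate 3, siNeg PE replicate 2, siSlc39a2 replicate 1 or siSlc39a2 replicate 2, and 10 without siNeg PE replicate 1 or siSlc39a2 replicate 3. Of the 10 smooth muscle and pericyte markers 3 differed upward as well, and their summed level was 6567 to 7153 CPM in siNeg and 6912 to 7222 CPM in siNeg PE. These markers overlap with the actin list, as given above, and the part of other cells in the difference was not tested.

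**Figure D5:**
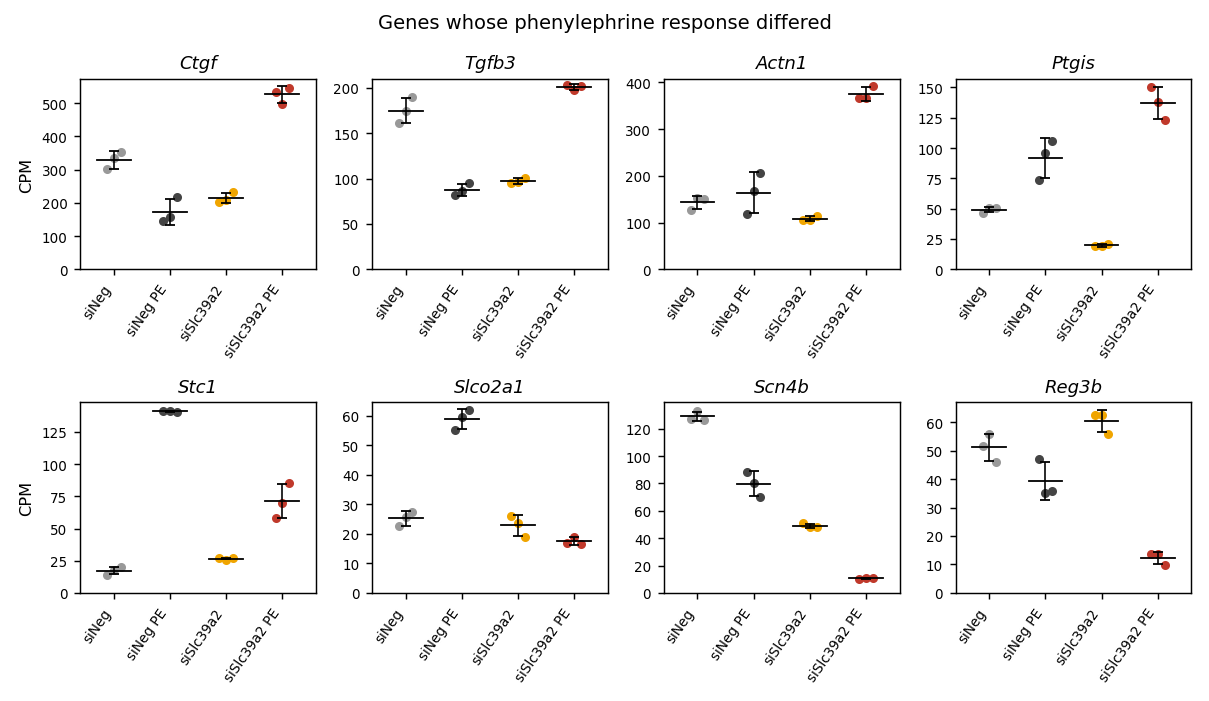
CPM of 8 genes whose PE response differed between the backgrounds, with 1 point per sample, a line at the mean and bars of 1 SD over the 3 samples of each group, on linear axes from 0. In Ctgf and Tgfb3 the siNeg PE samples lie below siNeg while the siSlc39a2 PE samples lie above siSlc39a2, and in Stc1 and Slco2a1 the siNeg PE samples are above all others.

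Other responses were smaller or reversed downward after knockdown. Stc1, the glycoprotein hormone stanniocalcin, rose from 14.1, 18 and 19.8 to 141, 141 and 140.4 CPM with siNeg and from 27.2, 25.9 and 26.9 to 58.4, 70.1 and 85.4 CPM after knockdown, a difference of -1.61 ± 0.18 (SE) (edgeR adjusted p = 0.000438). Slco2a1, the prostaglandin transporter, rose from 22.6, 25.9 and 27.6 to 55.2, 59.6 and 61.9 CPM with siNeg and had 26.1, 23.8 and 19.1 and 17, 19 and 16.6 CPM after knockdown, a difference of -1.61 ± 0.16 (SE). Id4, an inhibitor of helix-loop-helix factors, had effects of 1.26 and -0.41 (10.4, 9.55 and 11.9 CPM without and 8.13, 7.55 and 8.22 CPM with PE after knockdown). Pla2g2a, a secreted phospholipase, rose from 0.158, 0.227 and 0.236 to 2.54, 3.38 and 2.75 CPM with siNeg and from 7.81, 7.15 and 4.83 to 12.6, 14.6 and 10.1 CPM after knockdown, so that the smaller fold (0.91 against 3.77) started from a higher level. Htr3a, a serotonin receptor channel, had -0.45 after knockdown, which did not pass (edgeR adjusted p = 0.131), against 1.62 with siNeg.

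A last group fell after knockdown and little or less with siNeg. Reg3b, a secreted lectin, had 51.5, 55.7 and 46 and 46.9, 35.2 and 35.7 CPM in siNeg and siNeg PE and fell from 62.4, 62.6 and 55.9 to 13.6, 13.5 and 9.82 CPM after knockdown, a difference of -1.91 ± 0.19 (SE). Scn4b had 127, 133 and 127 and 88.5, 80.4 and 70.3 CPM with siNeg (difference -1.52 ± 0.11 SE), and Piwil2, an Argonaute of the germ line, effects of -1.08 and -2.83 (difference -1.75 ± 0.15 SE). Aldoc did not pass with siNeg (-0.16) and the difference was -1.24 ± 0.16 (SE). Of the interferon-stimulated genes 11 of 73 had a more negative PE effect after knockdown and none a more positive one, in cells whose starting levels were those given above, and this count was 2 without siSlc39a2 replicate 1, 3 without siSlc39a2 PE replicate 2, 4 without siSlc39a2 replicate 2 or siNeg PE replicate 1, and 7 without siNeg replicate 2, siNeg PE replicate 2 or siNeg PE replicate 3. The interferon count was up to 16 with other samples left out, 18 with the replicate block and 21 by DESeq2. In the ATF4 list 9 of 38 were more negative, with 4 without siNeg PE replicate 1 or 2, siSlc39a2 PE replicate 2 or siSlc39a2 replicate 1, and 5 without siNeg replicate 2 or 3 or siSlc39a2 replicate 2. With other samples left out the ATF4 count was up to 12. Not a single gene of the fatty acid oxidation, oxidative phosphorylation, cell cycle, ribosome biogenesis or zinc lists differed at the adjusted p in this fit. Other fits found up to 4 that were more negative in the fatty acid list (limma on log2(FPKM + 1)) and in the cell cycle list (DESeq2), and at most 1 gene, in either direction, in each of the other 3 lists. The cell cycle count was also 2 without siNeg replicate 3, and 1 without siNeg replicate 1 or siSlc39a2 replicate 3. For Ucp3 the difference was -1.26 ± 0.58 (SE) with a 95% interval of -2.51 to -0.02, and for Ckm -0.30 ± 0.14 (SE) with -0.61 to 0.00.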

How the data were processed

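RNA from 12 cultures of NRVMs was sequenced (4 groups of 3). The authors deposited expected counts per gene, which need not be whole, and FPKM values. The submitters' processing notes name HISAT, Bowtie2 and Rnor_6.0, and the counting program is not given in the sources used here. Of the deposited expected counts 78.7% were whole (tolerance 1e-09), and all were rounded. edgeR 4.0.16 (R 4.3.3) was run with its filter on low counts, TMM scaling and the quasi-likelihood test in 1 fit of all 12 samples (8 residual degrees of freedom), with Benjamini-Hochberg adjustment over all 13967 genes. CPM are TMM-scaled and not per length. Alternatives used DESeq2 1.42.0 size factors and test, limma 3.58.1 on quantile-normalized log2(FPKM + 1) and log2(FPKM + 0.1), no filter, a replicate block, the 2 groups alone and each sample left out. The pipeline was tested on simulated data. Named genes were the 15 largest rises and falls, up to 4 called genes per list and direction, the 10 largest differences of each sign (mean log2 CPM above 1), and Slc39a2, Nppa, Nppb, Myh7 and Irf7. Some genes that this rule names are not reported here. Groups came from the sample labels. The comparison and the gene lists were chosen with earlier results of these data known.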

Additional observations from a re-analysis of the deposited data

Results flagged for a closer look

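The PE effect of 46 named genes differed between Slc39a2 knockdown and siNeg by the edgeR test of the difference itself, and each is given with that difference on the log2 scale, the effect after knockdown minus that with siNeg. The difference was positive in 19 genes. Among secreted factors, receptors and membrane proteins these were Tgfb2 (1.43), Tgfb3 (2.043), Ctgf (2.216), Tnfrsf11b (1.992), Wfdc1 (0.6851) and Ildr2 (1.695). Among muscle, actin and calcium genes they were Cnn1 (1.714), Fhl1 (1.329), Acta1 (1.416), Pdlim5 (0.7147), Actn1 (1.599), Actn4 (0.6155), Casq1 (0.6271) and Camk2b (1.27). The others were Ptgis (1.908), Rcan1 (0.4442), Armcx1 (2.924), Bean1 (2.201) and St8sia2 (2.168).

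The difference was negative in 27 genes. Muscle genes among them were Ky (-1.358), Myom3 (-1.482), Dhrs7c (-1.343), Hrc (-0.554), Asb14 (-1.992) and Klhl38 (-0.5777). Channels and receptor signalling genes were Scn4b (-1.517), Kcnd2 (-1.613), Htr3a (-2.077), Adra1b (-0.6823), Adrb1 (-0.7179) and Gnb3 (-1.171). Immune genes were Cd74 (-1.226), Cxcl11 (-0.9925) and Cx3cl1 (-1.024). Secreted proteins and a transporter were Pla2g2a (-2.863), Reg3b (-1.912), Stc1 (-1.608) and Slco2a1 (-1.607). The others were Faap100 (-4.031), Hopx (-0.5962), Aldoc (-1.244), Chac1 (-0.9019), Herpud1 (-0.5449), Ulk1 (-0.4511), Piwil2 (-1.749) and Id4 (-1.67).

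In 34 of the 46 genes the difference passed the adjusted p whichever sample was left out. In 12 it was lost without at least 1 sample: Adra1b, Armcx1, Cd74, Cxcl11, Gnb3, Herpud1, Hrc, Ildr2, Klhl38, Pdlim5, Rcan1 and Ulk1. It was also lost under limma on log2 FPKM with at least 1 of the 2 pseudocounts in 9: Actn4, Cd74, Cxcl11, Faap100, Gnb3, Kcnd2, Klhl38, Ky and Pdlim5.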

How the results depend on the processing

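Under RLE size factors, no filter on low counts and the 2 groups alone, the counts of genes called for PE after knockdown stayed within 1.5 times of the main ones, and no named gene changed sign under any alternative. The median over all genes, which lies close to 0, did: for PE after knockdown it was -0.0115 under RLE and -0.0117 under DESeq2, and for the difference -0.00919 without the filter and -0.0209 without siSlc39a2 PE replicate 1. The study names limma after between-array normalization with the thresholds used here, and its text gives no pseudocount. Run here on log2(FPKM + 1), which understates folds of low genes, limma called 308 genes higher and 275 lower after knockdown. It called 163 higher and 124 lower with siNeg, and 37 more positive and 48 more negative in the difference at both thresholds. With FPKM + 0.1 it called 587 higher after knockdown. At the adjusted p alone, the difference was more negative in 448 genes by DESeq2 and in 469 by limma on log2(FPKM + 1). Leaving out each sample gave, for PE after knockdown, 628 to 1154 genes higher and 544 to 676 lower, or 3639 to 4274 and 3396 to 4392 at the adjusted p alone. With siNeg it gave 438 to 659 higher and 353 to 447 lower. The difference was then more positive in 39 to 86 genes and more negative in 53 to 83, or 127 to 267 and 128 to 344 at the adjusted p alone. Of the genes called after knockdown, 539 of 886 higher and 431 of 583 lower were called whichever sample was left out. The cause of these shifts was not tested, beyond the fewer samples. Genes near 3 counts per library are limited by depth.

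The groups share replicate numbers, which the labels do not tie to a preparation. Deviations of same-numbered siSlc39a2 PE and siSlc39a2 samples correlated at 0.0229, -0.0904 and 0.221, and those of siNeg PE and siNeg at 0.315, 0.0535 and 0.206. Differently numbered pairs ran from -0.249 to 0.236 after knockdown and from -0.249 to 0.0892 with siNeg. With siNeg the values 0.315 and 0.206 thus lay above every differently numbered pair. These values do not settle whether the samples were paired, and the main fit did not pair them. With the replicate number as a block, the difference was more positive in 536 genes and more negative in 517 at the adjusted p alone, with all 504 genes of the fit without it among them, while PE after knockdown gave 871 higher and 595 lower.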
